A study of Mus musculus with 6 samples.

Results

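The replication-dependent histone genes are described here in activated mouse B cells. They were taken as every gene whose symbol starts with Hist1h, Hist2h, Hist3h or Hist4h, which gave 70 of the 54446 genes listed. Of these, 67 are annotated as protein coding and 3 as pseudogenes, which are described apart. The names carry the histone type, so the coding members comprise 6 H1, 18 H2A, 18 H2B, 12 H3 and 13 H4 genes. RNA came from naive splenic B cells of *Tent5c* KO mice and their WT littermates of the mixed background C57BL/6J X CBA, at age 12 to 15 weeks, with both sexes used in the study. Both genotypes were activated in the same way over 7 days. The culture medium held the bacterial lipopolysaccharide LPS at 20 µg/ml and the cytokine IL-4 at 20 ng/ml, so no library here is from resting cells. There were 3 KO and 3 WT libraries with replicate numbers in their labels. In the paper a replicate came from KO and WT littermates, so libraries of the same number were taken as 1 littermate pair and 1 batch. *Tent5c* encodes a non-canonical poly(A) polymerase, and the KO removes it from all cells of the animal.

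Replication-dependent histone genes supply the core histones H2A, H2B, H3 and H4 and the linker histone H1 when DNA is copied, and their mRNAs accumulate in S phase. Unlike other mRNAs they normally end in a conserved stem-loop in place of a poly(A) tail. The stem-loop is bound by SLBP, the 3′ end is cut by a machinery that includes the U7 small nuclear RNP, and the mRNA is degraded when replication stops. The genes lie in clusters, and because many copies encode the same protein their coding sequences are much alike. The libraries were made from ribosome-depleted total RNA without selection for poly(A), so transcripts without a tail were also sequenced.

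The stem-loop is shown first because it is the element in which mRNAs of this class normally end. It was found in the annotated transcripts of 42 of the 67 coding members (Gencode vM21, GRCm38). Of the 25 members without a match, 17 have annotated transcripts that stop within 40 bases of the stop codon, before the place where the loop would lie. Only 5 different 16-base loops occurred, and 26 members carried the same one. Within the last 100 bases of any annotated transcript the pattern was present in 21 coding members (31.3%) and in 0.096% of all 21901 coding genes, and those were the same 21 genes. Other annotated transcripts run on past the loop, by 840 bases in *Hist1h1c* and 4884 in *Hist1h1d*. The loops of 9 members are printed as DNA letters from 5′ to 3′, with the stem-loop in capitals and up to 5 flanking bases on each side in lower case; they cover the 5 different loops and the 3 H4 genes, Hist1h4m, Hist1h4n and Hist1h4i, in which batch 1 lay over 2-fold from each other batch.
Hist1h1c, linker histone H1, chr13:23739507-23739532, plus strand: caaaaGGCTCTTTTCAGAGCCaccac
Hist1h2ab, H2A, chr13:23751567-23751592, plus strand: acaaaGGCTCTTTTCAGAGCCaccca
Hist1h2bb, H2B, chr13:23747198-23747223, plus strand: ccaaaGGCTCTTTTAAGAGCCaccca
Hist1h3e, H3, chr13:23561898-23561923, minus strand: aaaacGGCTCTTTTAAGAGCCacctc
Hist2h2ac, H2A, chr3:96220413-96220438, minus strand: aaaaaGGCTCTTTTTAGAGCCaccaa
Hist1h4h, H4, chr13:23531453-23531478, plus strand: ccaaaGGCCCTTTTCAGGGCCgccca
Hist1h4i, H4, chr13:22040961-22040986, minus strand: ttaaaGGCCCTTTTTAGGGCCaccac
Hist1h4m, H4, chr13:21812124-21812147, plus strand: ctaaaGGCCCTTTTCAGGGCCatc
Hist1h4n, H4, chr13:21831793-21831818, minus strand: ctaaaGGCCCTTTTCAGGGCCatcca

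The start of the genes was also compared by type, in RefSeq windows of 250 bases before to 50 after the transcription start (GRCm38.p6), which were matched for 61 of the 67 coding members. The letters searched, on both strands, were TATAAA, the core of the TATA box, CCAAT, the element bound by NF-Y, and ATTTGCAT, the octamer bound by Oct-1 and Oct-2. None of these 3 patterns contains another. TATAAA was found in 57.4% of the members' windows and in 14.2% of all 27025 windows. CCAAT was found in 85.2% of members' windows against 37.9% of all windows, and it was in every H1, H2A, H2B and H3 window but in 3 of the 12 H4 windows. The octamer occurred in 21.3% of members' windows against 1.8% of all windows, in 7 of 17 H2A and 6 of 16 H2B windows and in 0 of the H1, H3 and H4 windows. A match describes letters only. Windows of H2A and H2B genes on opposite strands can overlap, so that 1 site is counted for both. The octamer in the windows of *Hist1h2ae* and *Hist1h2bg* is such a site. A TATAAA may also lie on the opposite strand alone, as in *Hist1h2bn*. The windows of the H2B and the H4 gene with the highest level per kb are printed to show the contrast, with matches to the 3 patterns on either strand in capitals.
Hist1h2bb promoter, chr13:23746484-23746783, plus strand: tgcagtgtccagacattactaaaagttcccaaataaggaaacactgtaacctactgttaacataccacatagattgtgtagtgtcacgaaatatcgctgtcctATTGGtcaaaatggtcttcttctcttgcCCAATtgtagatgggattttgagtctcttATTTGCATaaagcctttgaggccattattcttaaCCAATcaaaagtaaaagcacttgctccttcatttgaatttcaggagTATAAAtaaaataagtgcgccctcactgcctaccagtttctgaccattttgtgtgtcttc
Hist1h4k promoter, chr13:21750504-21750803, minus strand: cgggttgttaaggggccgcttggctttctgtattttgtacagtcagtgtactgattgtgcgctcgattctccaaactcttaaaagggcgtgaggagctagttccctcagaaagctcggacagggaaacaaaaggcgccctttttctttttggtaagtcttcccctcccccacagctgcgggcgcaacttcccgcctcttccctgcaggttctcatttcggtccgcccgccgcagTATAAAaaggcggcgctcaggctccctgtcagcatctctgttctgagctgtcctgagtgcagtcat
The H2B window holds all 3 patterns, and the H4 window holds TATAAA alone.

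Libraries held between 5393558 and 6793520 counted fragments. The deposited values are fragments divided by a size factor per library and are called normalized counts. A count of 0 allows up to 2.72 to 3.61 normalized counts, depending on the library (3 fragments, counting error only). The targeted gene was checked first. *Tent5c* had 1255, 767 and 1585 normalized counts in WT libraries 1, 2 and 3 and 1993, 993 and 1170 in the libraries labelled KO, so the groups overlapped. Transcripts of a mutated gene can still be counted, and the mRNA level of *Tent5c* therefore does not check the labels. Markers of B cells, a list of 10 genes, were all present and summed to 57709 to 60035 in WT and 52362 to 60791 in KO, and those of plasma cells, another 10 genes, to 13450 to 26897 in WT and 13274 to 22274 in KO. Markers of T cells summed to 457 to 556 in WT and 457 to 554 in KO, and those of the myeloid, NK and erythroid lists to at most 137 in every library, with *Elane*, *S100a8*, *S100a9*, *Hba-a1*, *Hba-a2*, *Hbb-bs* and *Slc4a1* listed at 0 throughout. The part of cell composition in the results below was not tested, and in bulk RNA fewer cells of a type and less RNA per cell cannot be told apart.

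Histone members made up about 1% of all counted fragments in both genotypes. The 67 coding members took 0.911, 1.01 and 0.900% of fragments in WT libraries 1, 2 and 3 and 0.983, 1.16 and 0.950% in the KO libraries (0.939 ± 0.0587% and 1.03 ± 0.112%, mean ± SD, n = 3 each). The KO littermate was the higher in each pair, while KO library 3 lay below WT library 2. These are shares of library totals. With libraries scaled to equal totals, the median log2 fold change of KO over WT for all genes tested was 0.0346. In normalized counts the members summed to 1.00-fold in pair 3. Of the 67 coding members, 57 reached a mean of 10 normalized counts over the 6 libraries and entered the tests with 12322 genes in all. The other 10 stayed under 10, and 2 of them, *Hist2h2aa1* and *Hist2h3c1*, were at 0 in every library.

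H4 mRNAs held the largest share of the members' total, 27.5%, followed by H1 with 24.4%, H2B with 21.1%, H3 with 16.7% and H2A with 10.3%. These are shares of summed normalized counts and favour long transcripts such as those of H1. Per kb of exon, the median over all members of a type was 2055 for H4, 1670 for H1, 1294 for H3, 666 for H2B and 424 for H2A. On this scale too H4 stood first and H2A last. Long annotated exons lower the value per kb, and 18 of the 67 members have over 1 kb of exon. By cluster, the 54 coding members of Hist1 on chromosome 13 held 92.8% of the total, the 10 of Hist2 on chromosome 3 held 5.18%, Hist4h4 on chromosome 6 held 1.88% and the 2 of Hist3 on chromosome 11 held 0.0939%.

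The 3 members with the highest level per kb were all H4 genes, which encode the core histone that pairs with H3. *Hist1h4k* had 5335 ± 140 normalized counts per kb in WT and 5640 ± 851 in KO. *Hist1h4h* had 4751 ± 220 in WT and 5150 ± 614 in KO, and *Hist1h4f* had 4496 ± 151 in WT and 4970 ± 486 in KO (mean ± SD, n = 3 each). Each of these differences between genotypes was smaller than the SD of the KO libraries. *Hist1h2bb* led the H2B genes with 4491 ± 647 normalized counts per kb in WT, *Hist1h1c* led the H1 genes with 3208 ± 96.7, *Hist1h3e* the H3 genes with 2783 ± 132 and *Hist1h2ak* the H2A genes with 2726 ± 434. Next in their types came *Hist2h2bb* and *Hist1h2bg* among H2B, *Hist1h1a* and *Hist1h1b* among H1, *Hist1h3c* and *Hist1h3f* among H3, and *Hist1h2ab* and *Hist1h2ai* among H2A.

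**Figure D1:**
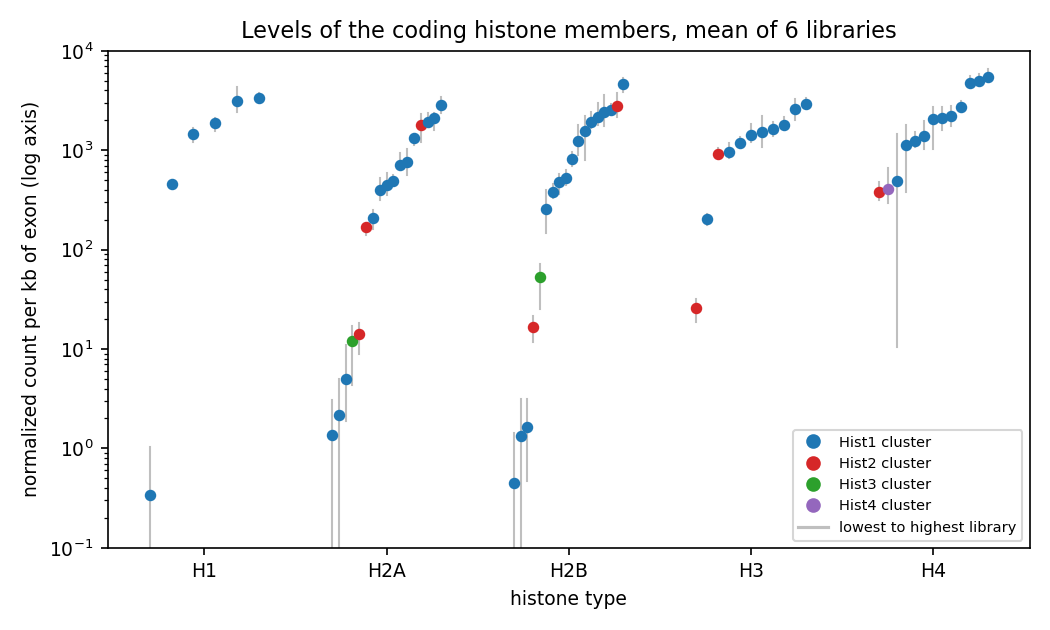
Mean normalized count per kb of exon over 6 libraries (log axis) of each coding histone member, grouped by histone type and coloured by cluster, with grey lines from the lowest to the highest library; the 2 members at 0 are not drawn and lines that reach 0 are cut at the axis. Every H4 member lies above 380, while H1, H2A and H2B each include members below 10, and Hist1h4m has the longest line among members with a mean above 10.

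Low members fell into several kinds. *Hist1h1t*, *Hist1h2aa* and *Hist1h2ba*, which are known for their expression in the testis, had at most 1.20 normalized counts in any library. Other low members share nearly all of their sequence with another locus. The 75-base words of each member's transcripts, the length of a read, were compared with all annotated transcripts. *Hist2h2aa2* had 0% of its words at no other locus, *Hist2h2aa1* and *Hist1h2bq* 3.9%, *Hist1h2ao* 6.9%, *Hist1h2ap* 7.4% and *Hist1h2br* 12.4%, and each of them had a mean under 10. The authors kept only uniquely mapped fragments, which lowers the values of such genes, so their own expression cannot be read from these counts. Of the 10 coding members with under 15% of words of their own, 4 passed the mean of 10, against 36 of the 40 members with at least 50%. *Hist1h3h*, with 6.5%, still had 1360 ± 122 normalized counts per kb in WT, and *Hist1h2ai*, with 10.7%, had 1926 ± 256. *Hist2h3c1* and *Hist2h2aa1* also share exon bases on the same strand with the gene model Gm20634, and *Hist1h1e* with *Hist1h2be*, *Hist2h2bb* with Gm42743 and *Hist3h2a* with *Trim17*, so that fragments there can be lost to these genes. For H4 the 13 genes encode 1 protein of 103 residues, and for H3 the 12 genes encode 2 proteins. The 18 H2A genes encode 9 proteins, the 18 H2B genes 11 and the 6 H1 genes 6, all counted from the annotated coding sequences.

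**Figure D2:**
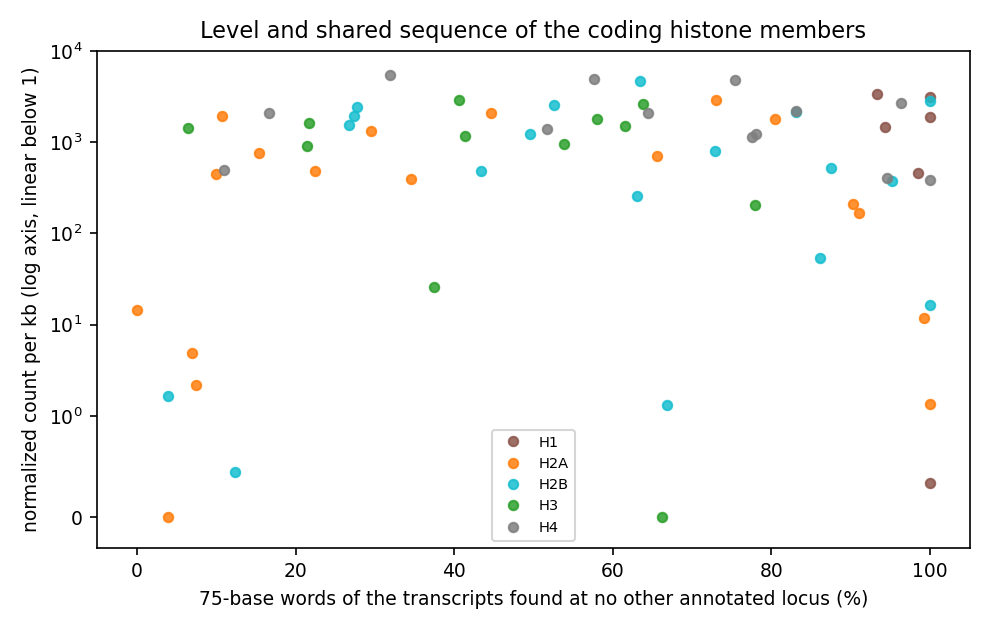
Mean normalized count per kb of each of the 67 coding members (vertical axis, log above 1 and linear below) against the percentage of 75-base words in its transcripts that occur at no other annotated locus (horizontal axis), coloured by type. Of the 10 members with under 15% of such words, 6 have a mean normalized count under 10, while members above 300 per kb are found from 6.5 to 100%.

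The comparison of KO with WT called no histone member. In limma on log2(normalized count + 1) with the pair as a block, 0 of the 57 coding members passed an adjusted p of 0.05, as did 0 of all 12322 genes (0%), and the smallest adjusted p among members was 0.970. At an unadjusted p under 0.05, 4 members were higher in KO and 0 lower, beside 1.67% of all genes higher and 3.03% lower. The 4 were *Hist1h4i*, *Hist1h2bn*, *Hist1h1e* and *Hist3h2ba*. edgeR's quasi-likelihood test on the recovered fragments called 0 members and 0 genes. At its unadjusted p under 0.05, 3 of the 57 members were higher in KO and 0 lower. Of all 12322 genes, 200 were higher and 368 lower at that threshold. DESeq2 called 0 of the 54 members to which it gave an adjusted p, with 0 under an unadjusted p of 0.05, and 23 of 9894 genes in all (0.232%).

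Small differences in the same direction were common among the members in pairs 1 and 2 but not in pair 3. The median log2 fold change of KO over WT was 0.09 for the 57 coding members (quartiles 0.04 and 0.14) and 0.00 for all genes tested (quartiles -0.09 and 0.09). Of the 57, 49 had a value above 0, against 50.2% of all genes. In all 3 pairs the KO library was the higher for 15 members (26.3%), against 11.7% of all genes, and the lower for 1 member, against 13.1% of all genes. KO and WT libraries did not overlap for 2 members, *Hist1h1e* and *Hist1h3f*, which had all KO libraries above all WT libraries, against 3.39% of all genes, and 0 members had all KO libraries below, against 3.44%. The members are not independent of one another, since they share libraries and sequence, and these counts carry no test. They also differed by pair: the median log2 ratio of KO to WT over the members came to 0.10, 0.20 and -0.01 for pairs 1, 2 and 3. The KO library was the higher for 45, 50 and 23 of the 57 members in these pairs, beside 5765, 6161 and 6215 of all 12322 genes. Without pair 2 the median fold change of the members was 0.04, and without pair 3 it was 0.15. Marker lists also differed by pair, with median log2 ratios of 0.34, -0.04 and -0.52 in pairs 1, 2 and 3 for the plasma cell list and of -0.11, -0.08 and 0.20 for the B cell list, and their part in the histone ratios was not tested. For the typical member the 95% interval of the fold change ran from -0.11 to 0.28 on the log2 scale, and 54 of the 57 intervals lay within a 2-fold change either way.

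Genes of DNA replication also had a median above 0. A list of 50 S phase and DNA replication genes had a median log2 fold change of 0.07, with 20 of 50 higher in KO in all 3 pairs and pair medians of 0.10, 0.09 and 0.02 for pairs 1, 2 and 3. For 24 genes of G2 and mitosis the median was 0.04, with 9 higher in all 3 pairs. Of all genes tested, 11.7% were higher in KO in all 3 pairs. None of the genes of the 2 lists passed an adjusted p of 0.05 in limma. At an unadjusted p under 0.05, 4 of the 50 and 1 of the 24 were higher, beside 1.67% of all genes. The part of the share of cycling cells in the histone values was not tested.

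**Figure D3:**
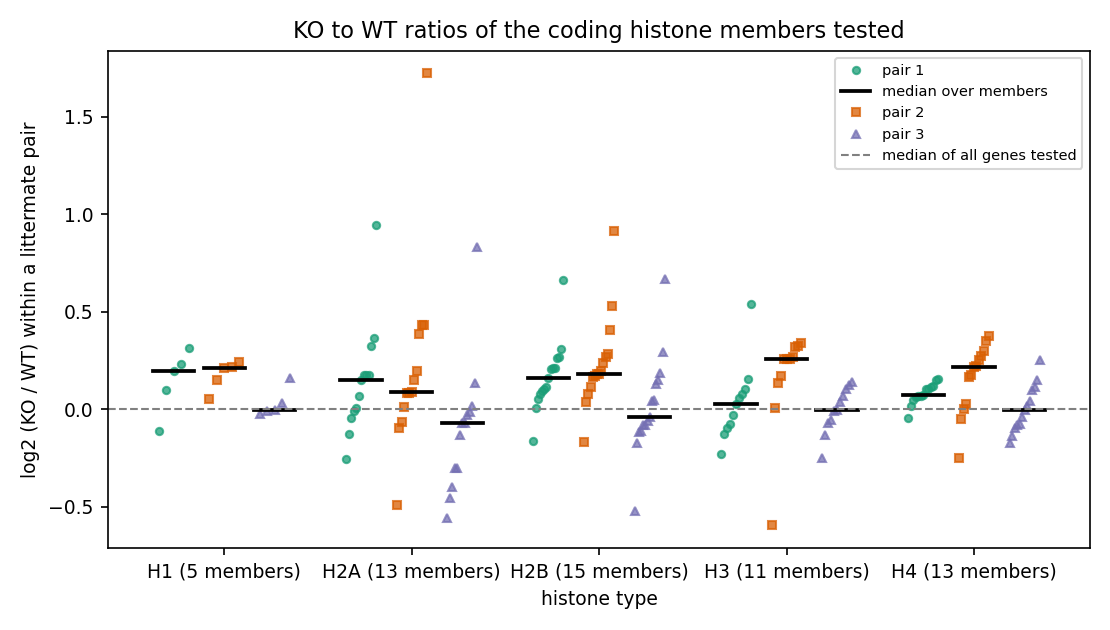
Log2 ratio of KO to WT within each littermate pair (vertical axis) for the 57 coding members tested, by histone type, with black bars at the median over the members of a type and a dashed line at the median of all genes tested. The medians in pairs 1 and 2 lie above the dashed line in all 5 types, and those of pair 3 lie at or below it.

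The linker histones H1, which bind the DNA between nucleosomes, had the highest mean ratio of the summed levels among the types, by less than the SD over pairs. Their 6 genes summed to 13425, 15333 and 14658 normalized counts in WT libraries 1, 2 and 3 and to 14981, 17596 and 14841 in KO. The mean log2 ratio over pairs was 0.12 ± 0.09 (SD, n = 3), with 1.12-, 1.15- and 1.01-fold in pairs 1, 2 and 3. *Hist1h1c* held the largest part of the sum, with 4861, 4991 and 5162 in WT and 5574, 5911 and 5087 in KO. KO library 3 fell between the WT libraries, and the groups overlapped.

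*Hist1h1e* did not overlap between groups. It had 2317, 2748 and 2805 normalized counts in WT and 2886, 3201 and 2871 in KO, a log2 fold change of 0.19 ± 0.07 (SE; limma adjusted p = 0.970), and the lowest KO library was 1.02-fold the highest WT library. *Hist1h1a* differed more between pairs than between genotypes, with 2010, 2896 and 1780 in WT and 1864, 3221 and 1993 in KO. Pair 2 was high in both genotypes. *Hist1h1b* had 1157, 1514 and 1406 in WT and 1361, 1571 and 1404 in KO, with overlapping groups.

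H2A, which dimerises with H2B, summed to 5780, 6886 and 5897 normalized counts in WT and to 6547, 7176 and 6050 in KO over 18 genes. The mean log2 ratio was 0.09 ± 0.08 (SD, n = 3), and pair ratios were 1.13-, 1.04- and 1.03-fold. The median log2 fold change of the 13 members tested was 0.04, with 9 above 0. *Hist1h2ak* had 920, 1256 and 1038 in WT and 1041, 1334 and 1140 in KO and was higher in KO in each pair by 0.18, 0.09 and 0.14 on the log2 scale. *Hist1h2af* was the one coding member that was lower in KO in each pair, with 496, 579 and 539 in WT and 454, 555 and 515 in KO. Its log2 fold change was -0.09 ± 0.07 (SE), and its groups overlapped. *Hist1h2ad* had 239, 180 and 300 in WT against 200, 243 and 203 in KO, with no common direction over the pairs. The values of *Hist1h2ab*, 1063, 1015 and 926 in WT and 1114, 1079 and 753 in KO, and of *Hist1h2ai*, 667, 866 and 738 in WT and 669, 919 and 674 in KO, were lower in KO only in pair 3.

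H2B summed to 11943, 13873 and 12287 normalized counts in WT and to 12809, 15670 and 12127 in KO over 18 genes, a mean log2 ratio of 0.09 ± 0.10 (SD, n = 3). Of its 15 members tested, 14 had a log2 fold change above 0, with a median of 0.11, and 6 were higher in KO in all 3 pairs. *Hist1h2bb* had 2253, 2623 and 1967 in WT and 2426, 2692 and 2241 in KO. *Hist1h2bn* had 1195, 749 and 674 in WT and 1380, 849 and 738 in KO, so that the KO littermate was 0.21, 0.18 and 0.13 higher on the log2 scale while pair 1 was high in both genotypes. Its log2 fold change was 0.17 ± 0.06 (SE; limma adjusted p = 0.970). *Hist1h2bg* had 1391, 1611 and 1554 in WT and 1399, 1807 and 1609 in KO. *Hist1h2bp*, a low member, had 105, 212 and 181 in WT and 130, 282 and 186 in KO and the largest log2 fold change of the Hist1 cluster, 0.25 ± 0.11 (SE). All 4 genes overlapped between the groups.

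H3 summed to 10552, 9872 and 9441 normalized counts in WT and to 10805, 11726 and 9738 in KO over 12 genes, a mean log2 ratio of 0.11 ± 0.12 (SD, n = 3), with 1.02-, 1.19- and 1.03-fold in pairs 1, 2 and 3. *Hist1h3f* had nearly equal WT libraries, 2151, 2176 and 2134, below KO libraries of 2194, 2717 and 2324. The lowest KO library exceeded the highest WT library by 1.01-fold, and the log2 fold change was 0.16 ± 0.07 (SE; limma adjusted p = 0.970). *Hist1h3e* had 2209, 2343 and 2428 in WT and 2330, 2806 and 2425 in KO, with KO library 2 above all others. *Hist1h3c* had 2000, 1412 and 1263 in WT and 2081, 1692 and 1358 in KO, with the KO littermate the higher in each pair and the groups overlapping.

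H4 summed to 15656, 18045 and 16144 normalized counts in WT and to 16569, 20281 and 15839 in KO over 13 genes, a mean log2 ratio of 0.07 ± 0.10 (SD, n = 3). Of the 13, all tested, 11 had a log2 fold change above 0, with a median of 0.09. *Hist1h4h* had 2139, 2344 and 2215 in WT and 2379, 2727 and 2155 in KO. For *Hist1h4k* the values were 1615, 1681 and 1698 in WT and 1736, 2036 and 1506 in KO, and for *Hist1h4f* 1790, 1690 and 1794 in WT and 1879, 2157 and 1793 in KO. In all 3 genes KO library 3 lay among or below the WT libraries. Summed over all 67 coding members, the levels were 57356, 64009 and 58427 in WT and 61711, 72450 and 58596 in KO, or 1.08-, 1.13- and 1.00-fold in pairs 1, 2 and 3, a mean log2 ratio of 0.10 ± 0.09 (SD, n = 3). With 3 pairs an exact sign-flip permutation test cannot go below 0.25, and none was run on the sums.

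By cluster, the Hist1 genes set the total. Their 54 coding members lie at chr13:21715763-23934851 (GRCm38) and summed to a mean log2 ratio of 0.10 ± 0.10 (SD, n = 3). The Hist2 cluster lies at chr3:96219865-96270132, 4.18 Mb from *Tent5c* on the same chromosome, and its 10 coding members had a mean log2 ratio of 0.10 ± 0.15. Hist2 genes passed the mean of 10 in 7 cases, with a median log2 fold change of 0.01 and 4 above 0. The Hist2 genes did not share a direction. With mice of mixed background, the part of inherited sequence differences linked to the targeted gene was not tested.

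*Hist2h2ac*, an H2A gene, showed the widest difference between littermates in that cluster. It had 629, 1095 and 673 normalized counts in WT and 1211, 779 and 1200 in KO, so that KO was higher in pairs 1 and 3, by 0.94 and 0.83 on the log2 scale, and lower in pair 2, by -0.49. KO libraries 1 and 3 were the highest, WT libraries 1 and 3 the lowest and both libraries of pair 2 lay between them. The log2 fold change was 0.43 ± 0.26 (SE; limma adjusted p = 0.970). *Hist2h2bb*, an H2B gene of the same cluster, went the other way in each pair, with 938, 1179 and 1181 in WT and 839, 1434 and 824 in KO. Its log2 ratios were -0.16, 0.28 and -0.52. The pseudogene *Hist1h2al*, described below, shares sequence with *Hist2h2ac* and also had the opposite sign to it in each pair.

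*Hist2h2be*, another H2B gene, had 31.2, 40.8 and 45.8 normalized counts in WT and 50.02, 36.2 and 56.3 in KO, with the same signs over the pairs as *Hist2h2ac*. *Hist2h2ab* had 62.3, 79.5 and 80.7 in WT and 78.3, 80.1 and 65.4 in KO. *Hist2h3b*, an H3 gene, had 434, 430 and 459 in WT and 412, 519 and 419 in KO. None of these separated the genotypes. The H3 gene *Hist2h3c2* had 19.8, 29.3 and 32.5 in WT and 29.3, 19.1 and 27.2 in KO. *Hist2h4*, an H4 gene, had 509, 787 and 607 in WT and 534, 761 and 552 in KO, with pair 2 high in both genotypes.

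The Hist3 genes were among the lowest of the members tested and lie at chr11:58948920-58956830. *Hist3h2ba*, an H2B gene, had 36.8, 15.7 and 26.5 normalized counts in WT and 44.4, 30.5 and 42.7 in KO. The KO littermate was higher in each pair and the groups overlapped, with the largest log2 fold change among coding members, 0.62 ± 0.24 (SE; limma adjusted p = 0.970). *Hist3h2a* had 28.3, 9.41 and 26.5 in WT and 36.8, 33.4 and 19.1 in KO, and its log2 fold change of 0.55 ± 0.43 (SE) turned to -0.04 without pair 2. In both genes WT library 2 was the lowest library. *Hist4h4*, the H4 gene on chromosome 6 at chr6:136801553-136804415, had 860, 1904 and 868 in WT and 835, 1600 and 931 in KO. Both littermates of pair 2 were high, and the groups overlapped.

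Several Hist1 genes differed far more between batches than between genotypes, with both littermates on the same side. The median SD of a coding member over the WT libraries was 0.20 on the log2 scale and over the KO libraries 0.26, beside 0.16 and 0.15 for all genes tested, whereas the SD of the 3 pair ratios was 0.14 for the members and 0.19 for all genes. As a count with no test, chosen after the values were seen, 3 of the 57 members differed over 2-fold between 1 batch and each other batch in both genotypes, beside 1.42% of all genes. All 3 were H4 genes and in all 3 it was batch 1 that stood apart.

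*Hist1h4m* had 575 normalized counts in WT library 1 and 583 in KO library 1, and 4.18, 4.82, 5.72 and 5.45 in WT libraries 2 and 3 and KO libraries 2 and 3. It was thus read at a substantial level in 1 pair of littermates alone, where batch 1 lay 96.5-fold above the mean of the others on the scale of log2(normalized count + 1). *Hist1h4n*, which lies at chr13:21831767-21832196 close to *Hist1h4m* at chr13:21811746-21812147 and on the other strand, went the other way. It had 437 in WT library 1 and 475 in KO library 1 against 985 to 1182 in the other 4 libraries. *Hist1h4m* shared 89.0% of its 75-base words with *Hist1h4n*. The sum of the 2 genes was 1012, 1186 and 1045 in WT and 1058, 1188 and 991 in KO. On the scale of normalized count + 1, *Hist1h4m* alone spanned 113-fold over the 6 libraries and *Hist1h4n* 2.70-fold, while their sum spanned 1.20-fold. Whether the transcription of the copies or the assignment of fragments to them differed between batches was not tested.

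*Hist1h4i*, at chr13:22040636-22041362, had 275 normalized counts in WT library 1 and 297 in KO library 1, and 1127, 887, 1317 and 1060 in WT libraries 2 and 3 and KO libraries 2 and 3. Unlike the former pair it has 77.6% of its 75-base words at no other locus, and adding the member that shares most words with it, *Hist1h4a*, left a span of 2.46-fold out of 4.78-fold on the same scale. Within pairs KO was higher by 0.11, 0.22 and 0.26 on the log2 scale, a log2 fold change of 0.20 ± 0.07 (SE; limma adjusted p = 0.970). Differences between batches reached 2-fold in 1 genotype or nearly so for other Hist1 genes. *Hist1h2bl* was lower in batch 1, with 305 and 367 against 620 to 848, and *Hist1h3a* was higher, with 1102 and 1187 against 576 to 700. These genes lie at both ends of the Hist1 region, at chr13:21715763-21716143 and chr13:23761853-23762386. *Hist1h4b*, close to *Hist1h3a*, was also higher in batch 1, with 694 and 773 against 407 to 499, and so were *Hist1h2bn* (1.71-fold) and *Hist1h2bj* (1.66-fold). The mice were of mixed background, and the part of inherited sequence differences between litters was not tested, nor was that of the batch.

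**Figure D4:**
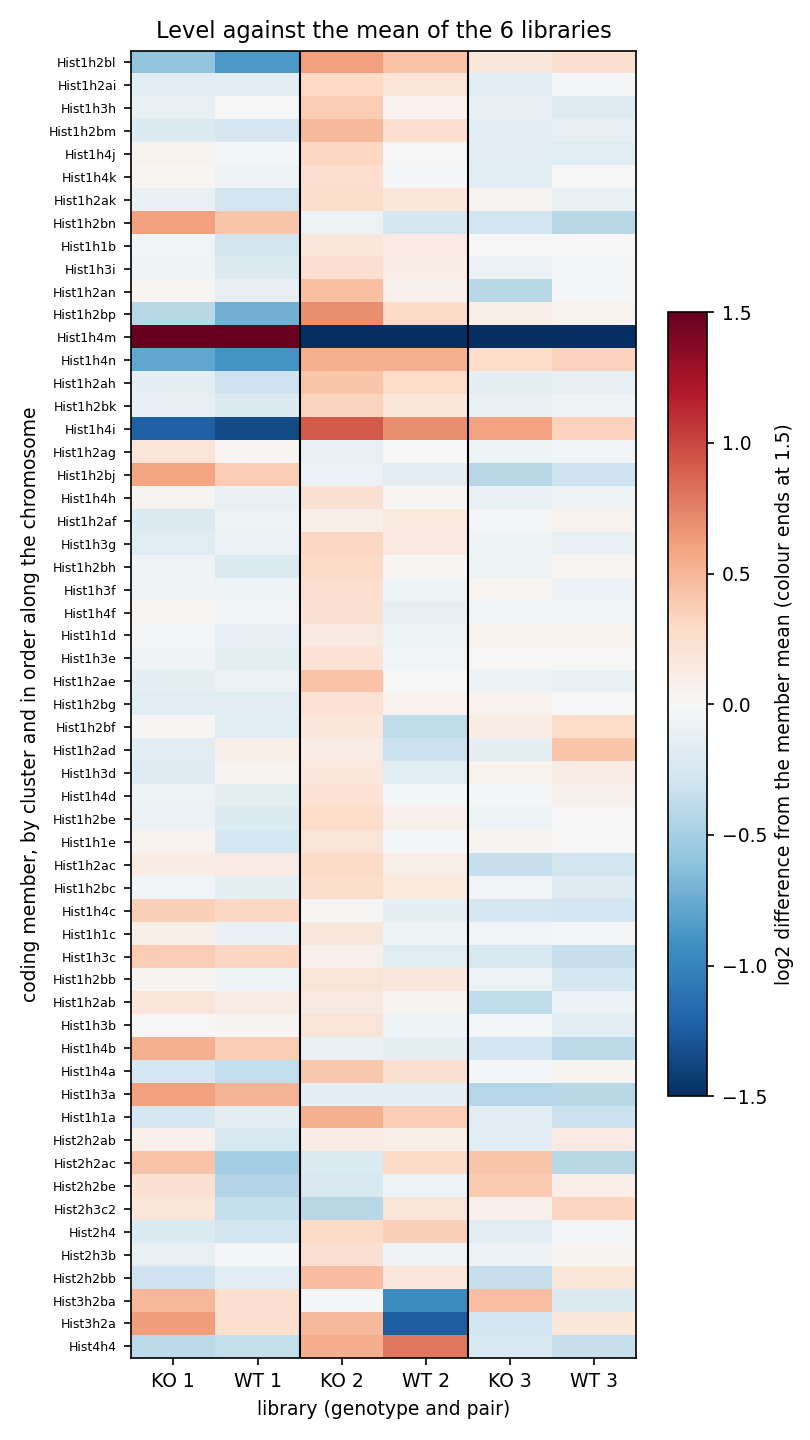
Log2 difference of each library from the mean of 6 libraries for the 57 coding members tested (rows, by cluster and in order along the chromosome), with the colour scale ending at 1.5 in either direction and vertical lines between littermate pairs. The columns of a pair mostly share their colour, with Hist1h4m, Hist1h4n and Hist1h4i set apart in pair 1, while Hist2h2ac differs within pairs.

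The pseudogene *Hist1h2al*, which lies outside the Hist1 region at chr13:51202727-51203065 on the minus strand, had 897, 562 and 840 normalized counts in WT and 8.49, 1186 and 12.7 in KO. In 4 libraries it lay between 562 and 1186, and in KO libraries 1 and 3 it lay below 13. KO library 2 was the highest of all, so that the groups overlapped. The log2 fold change was -3.81 ± 1.36 (SE; limma adjusted p = 0.970), and without pair 2 it was -6.25 (adjusted p = 0.00987), while over the other alternatives the adjusted p lay between 0.428 and 1.00. The call without pair 2 thus rests on the absence of KO library 2. *Hist1h2al* has 54.3% of its 75-base words at no other locus and shares words with the Hist2 H2A genes, among them *Hist2h2ac*. The member that shares most words with it is *Hist2h2aa1*, with 43.4%, while *Hist2h2ac* has 80.5% of its own words at no other locus. In KO libraries 1 and 3, where *Hist1h2al* was lowest, *Hist2h2ac* was highest, with 1211 and 1200. In WT libraries 1 and 3 *Hist2h2ac* was lowest, with 629 and 673. In pair 2 *Hist2h2ac* was lower in KO and *Hist1h2al* higher. Whether the assignment of fragments to the genes differed between libraries was not tested. *Hist3h2bb-ps*, next to the Hist3 genes, had 34.9, 28.2 and 7.22 in WT and 37.8, 47.7 and 7.26 in KO, with both littermates of pair 3 low. *Hist1h2aj* had at most 3.81 in any library and was not tested. Summed, the pseudogenes had 0.0506-, 2.09- and 0.0279-fold of the WT level in KO of pairs 1, 2 and 3.

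**Figure D5:**
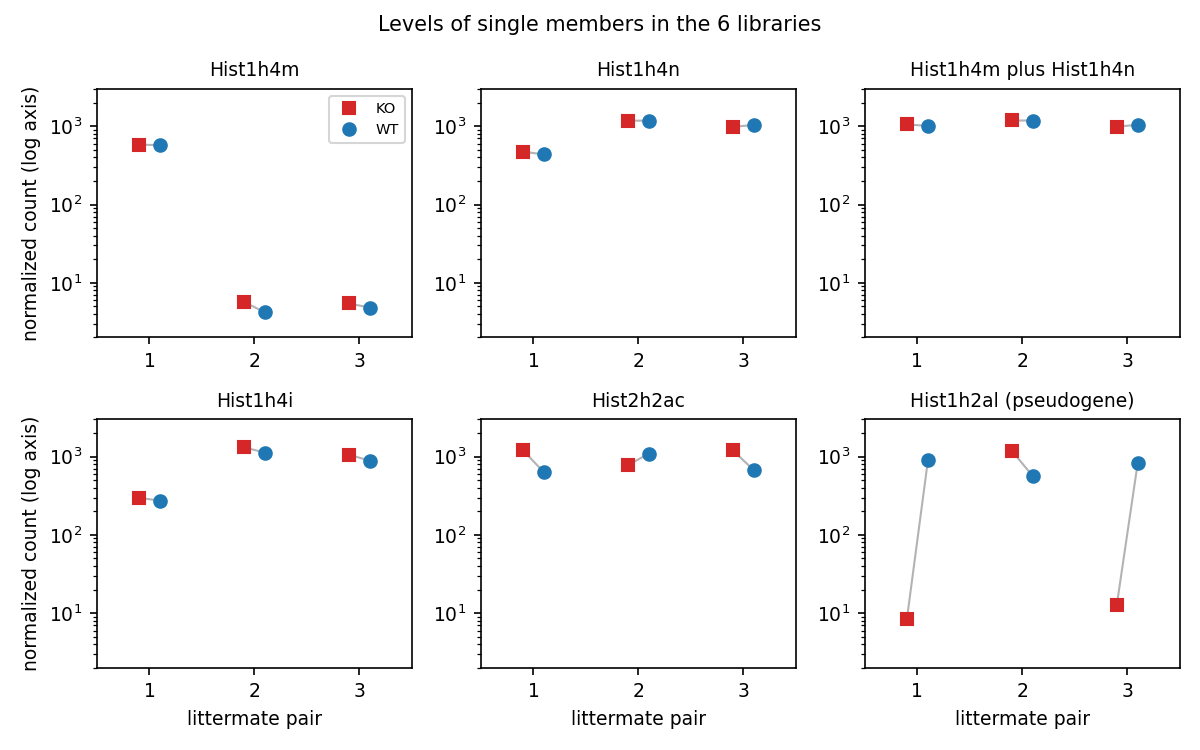
Normalized counts (log axis) in the KO (square) and WT (circle) library of each littermate pair (horizontal axis) for Hist1h4m, Hist1h4n, their sum, Hist1h4i, Hist2h2ac and the pseudogene Hist1h2al; grey lines join littermates. Hist1h4m is above 570 in pair 1 and below 6 in pairs 2 and 3 in both genotypes, the sum with Hist1h4n stays between 991 and 1188, and Hist1h2al is below 13 in KO libraries 1 and 3.

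The genes that make and turn over histone mRNA were read from a list of 34, of which 30 were in the file and 29 reached the mean of 10. Their median log2 fold change was 0.02, with 20 above 0 and 9 below, and 0 passed an adjusted p of 0.05 in limma, with 0 under an unadjusted p of 0.05. *Slbp*, which encodes the protein that binds the stem-loop, had 725, 738 and 753 normalized counts in WT and 664, 740 and 697 in KO, a log2 fold change of -0.08 ± 0.07 (SE). The WT libraries were close together and KO library 2 lay among them. *Npat*, an activator of histone gene transcription, had a log2 fold change of 0.00 ± 0.07 (SE), and *Lsm10* and *Lsm11*, subunits of the U7 small nuclear RNP, of 0.01 ± 0.13 and 0.04 ± 0.11. The highest means in the list belonged to *Cnot1*, a scaffold of the deadenylase complex, with 2371 ± 206 in WT and 2438 ± 83.2 in KO, *Srrt*, a partner of the nuclear cap-binding complex, with 1205 ± 76.7 and 1257 ± 73.9, and *Snrpb*, an Sm protein of the spliceosome, with 1131 ± 97.8 and 1145 ± 67.9. The extremes were *Snrpf*, 0.43 ± 0.27, which was 1.35 higher on the log2 scale in KO of pair 3, and *Upf1*, a helicase of mRNA decay, -0.09 ± 0.07. For 13 genes of histone gene transcription and cell cycle entry the median was 0.02, and for 31 histone chaperones and assembly factors 0.00, with 15 above 0 and 16 below.

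Replication-independent histones are for the most part made through the cell cycle from polyadenylated mRNAs. Of 23 such genes listed, 19 were in the file and 9 reached the mean of 10. Their median log2 fold change was 0.04, with 6 above 0, and 0 passed an adjusted p of 0.05 in limma. At an unadjusted p under 0.05, 1 of the 9 was higher, beside 1.67% of all genes. *H2afz*, the gene of the variant H2A.Z, had 1679 ± 107 normalized counts in WT and 1760 ± 213 in KO (SD, n = 3). *H3f3b*, which encodes H3.3, had 1554 ± 177 and 1778 ± 329, and *H2afx*, the gene of the variant phosphorylated at DNA breaks, had 1573 ± 169 and 1703 ± 180. All of these overlapped between groups. *H1f0*, a linker histone of non-dividing cells, had 164, 124 and 229 in WT and 238, 232 and 223 in KO, a log2 fold change of 0.46 ± 0.18 (SE), and *H2afj* had the lowest, -0.12 ± 0.08. The single gene under the unadjusted threshold was *H1f0*, in which WT library 3 lay among the KO libraries.

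Members with and without an annotated stem-loop had medians close to each other, but this cannot show whether the loop matters. Of the 25 coding members without one, 17 have annotated transcripts that end within 40 bases of the stop codon, before the loop. The 36 tested members with an annotated loop had a median log2 fold change of 0.10, with 31 above 0. The 21 without an annotated loop had a median of 0.07, with 18 above 0. Restricted to the 36 tested members with at least 50% of their words at no other locus, 33 had a fold change above 0, and 13 were higher in KO in all 3 pairs. Among the 47 members that spanned less than 2-fold over the libraries of each genotype, 40 had a fold change above 0 and 11 were higher in all 3 pairs. Of all genes tested, 50.2% had a fold change above 0 and 11.7% were higher in KO in all 3 pairs. These subsets have members in common, were chosen after the values were seen and carry no test.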

How the data were processed

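RNA was sequenced from 3 KO and 3 WT libraries of activated B cells (75-nt paired-end reads, stranded, ribosome-depleted, with ERCC RNA added). The submitters' processing notes name bcl2fastq 2.20, STAR 2.6.1a, featureCounts of Subread 1.6.3 and DESeq2. The authors counted fragments per gene on GRCm38 with the Gencode vM19 annotation, left out fragments that mapped to several places, and deposited the counts after division by size factors, a signal called normalized counts here. The size factors remove any shift common to most genes, and 0 ERCC rows are in the values used.

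Each value was a whole multiple of 1 fragment within 0.01, for 100% of values above 0 in every library, so fragments were recovered for edgeR and DESeq2. Genes with a mean of at least 10 were tested with limma 3.58.1 (R 4.3.3) on log2(normalized count + 1), with the littermate pair as a block and Benjamini-Hochberg adjustment over all genes. edgeR 4.0.16 and DESeq2 1.42.0 were alternatives. Fold changes on this scale understate those of low genes. The fits were tested on simulated data. The littermate pairing follows the replicate numbers, since the paper states that a replicate came from KO and WT littermates. Deviations of paired libraries from their group means correlated over genes at 0.328, 0.685 and 0.170 for pairs 1, 2 and 3. Libraries of different pairs reached 0.282 (KO 3 with WT 1) and 0.260 (KO 1 with WT 3), above the value of pair 3. The values thus do not single out KO 3 and WT 3 as littermates, and no 2 libraries were duplicates. Separate animals were used, and p-values cover the spread between these 3 pairs.

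Types and clusters come from symbols. Positions, exon lengths and transcripts come from Gencode vM21 (54409 of 54446 gene IDs matched), which is not the version of the counts, and promoters from RefSeq. The stem-loop was searched by the histone stem-loop consensus. Members and lists were chosen with earlier results of these data known. The rule for named genes took *Tent5c*, all tested coding members outside Hist1, the 3 highest per kb of each of 5 types, the 5 highest and 5 lowest fold changes, the pseudogenes seen in at least 3 libraries and any member called. In each other list the rule took the 3 highest means and both extremes, but these are named here only for the 2 lists of replication-independent histones and histone mRNA processing. The other lists are given by counts only. All other members, *Slbp*, *Npat*, *Lsm10* and *Lsm11* were named after their values were seen.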

Additional observations from a re-analysis of the deposited data

How the results depend on the processing

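Under every alternative 0 coding members were called in either direction. Their median log2 fold change, 0.09, lay between 0.08 and 0.13 under other pseudocounts, filters, scalings and tools, and between 0.04 and 0.15 with 1 pair left out. Without the pair as a block (no replicate block), limma called 0 genes and 0 members, with the same median of 0.09. Calls over all genes were 0 lower and 0 higher, and 22 lower and 1 higher in DESeq2. With 1 pair left out they ranged from 0 to 168 lower and from 0 to 3 higher. The cause was not tested.

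The mean log2 ratio of the sum over all coding members, 0.10, lay between 0.05 and 0.14 with 1 pair left out. Scaling to equal totals moved the median of genes of histone mRNA processing from 0.02 to 0.0497 and that of chaperones from 0.00 to 0.0332, and quantile normalization moved the latter to 0.0308. The median of all genes tested moved as well, to 0.0346 with equal totals and to 0.0162 under quantile normalization. The medians of the coding members were then 0.13 and 0.11. Of 415 fold changes of named genes under alternatives, 400 kept direction and side of the threshold and 14 reversed, none of them called. *Hist1h2ai* turned to 0.0059 under quantile normalization and 0.0207 with equal totals. The other reversals came with 1 pair left out, where fold changes ranged from -0.14 to 0.17 for *Hist2h2ab*, -0.10 to 0.098 for *Hist2h3b*, -0.34 to 0.061 for *Hist2h2bb*, -0.42 to 0.15 for *Hist2h3c2*, -0.093 to 0.0099 for *Hist2h4*, -0.044 to 1.04 for *Hist3h2a*, -0.15 to 0.029 for *Hist4h4*, -0.12 to 0.077 for *Hist1h2ab*, -0.41 to 0.089 for *Hist1h2ad*, -0.063 to 0.046 for *Hist1h2ai*, -0.034 to 0.19 for *Hist1h4k* and -0.033 to 0.52 for *Tent5c*. Members under about 3 fragments cannot be told from 0 at this depth.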
